A study of Arabidopsis thaliana with 9 samples.

Results

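The genes described here are 88 of 25199 Arabidopsis thaliana loci (0.349%) whose transcripts lay below wild type in RAV1 over-expression seedlings and above it in bes1-D seedlings. They were chosen by their own measured levels in RNA sequencing of whole 7-day-old seedlings, with 3 biological replicates in each of 3 groups and no treatment. The groups were wild type of the accession Enkheim (En2), a RAV1 over-expression genotype (RAV1OE) and bes1-D, and all 3 are labelled with the En2 background. The seedlings grew on plates of Murashige and Skoog medium at 22 °C with 16 hours of light and 8 of dark, after 2 days of cold. Neither the promoter that drives RAV1 nor the number of independent lines is given in the sources used here, and bes1-D is a single dominant allele. A locus was a member when all 3 RAV1OE libraries were below all 3 En2 libraries and all 3 bes1-D libraries were above them. The mean of log2(FPKM + 1) also had to differ from En2 by at least 0.5 in each line, and the highest group mean had to reach 5 FPKM (fragments scaled to transcript length and library size). Since those values fixed the directions, every change given below for a member is a description and carries no test. The groups overlap for no member, by the rule. Where 3 values with an SD are given for a gene, they are its group means in FPKM in En2, RAV1OE and bes1-D, in this order (n = 3 each).

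BES1 is a transcription factor of the brassinosteroid pathway. When the steroid binds the receptor kinase BRI1 at the cell surface, the kinase BIN2 is switched off and BES1 accumulates in the nucleus, where it activates some genes and represses others. The bes1-D mutation is known to stabilise the protein, and its targets include genes of cell elongation such as expansins and xyloglucan-modifying enzymes. RAV1 carries an AP2 and a B3 DNA-binding domain and is known from work on leaf growth and senescence. By its title the study asked how RAV1 and BES1 act on each other and on growth and defence genes.

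The members differed more from En2 in RAV1OE than in bes1-D. Their median change on the log2(FPKM + 1) scale was -0.97 in RAV1OE, with the lowest at -2.69 (AT1G65490), and 0.66 in bes1-D, with the highest at 1.97 (ALMT1). The larger of the changes was the one in RAV1OE for 69 members and the one in bes1-D for 19. A change of at least 1 was reached by 42 members in RAV1OE, by 16 in bes1-D and by 8 in both. Those 8 were SWEET10, AT5G38100, AT1G53690, LHB1B1, AT4G04293, AT1G29430, AT1G73120 and AT2G01610. Levels in En2 ranged from a mean of 2.64 FPKM (AT1G08430, ALMT1) to 2667 (AT2G45180), with a median of 24.4, beside 18.2 over all 15777 loci with a group mean of 5 FPKM or more. There were 20 members at 100 FPKM or more in En2 and 23 under 10. The scale understates the changes of the latter, since 1 is added before the logarithm. By the same kind of rule, 143 loci were higher in RAV1OE and lower in bes1-D, 131 were higher in both lines and 97 lower in both. All of these comparisons share the En2 libraries.

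**Figure D1:**
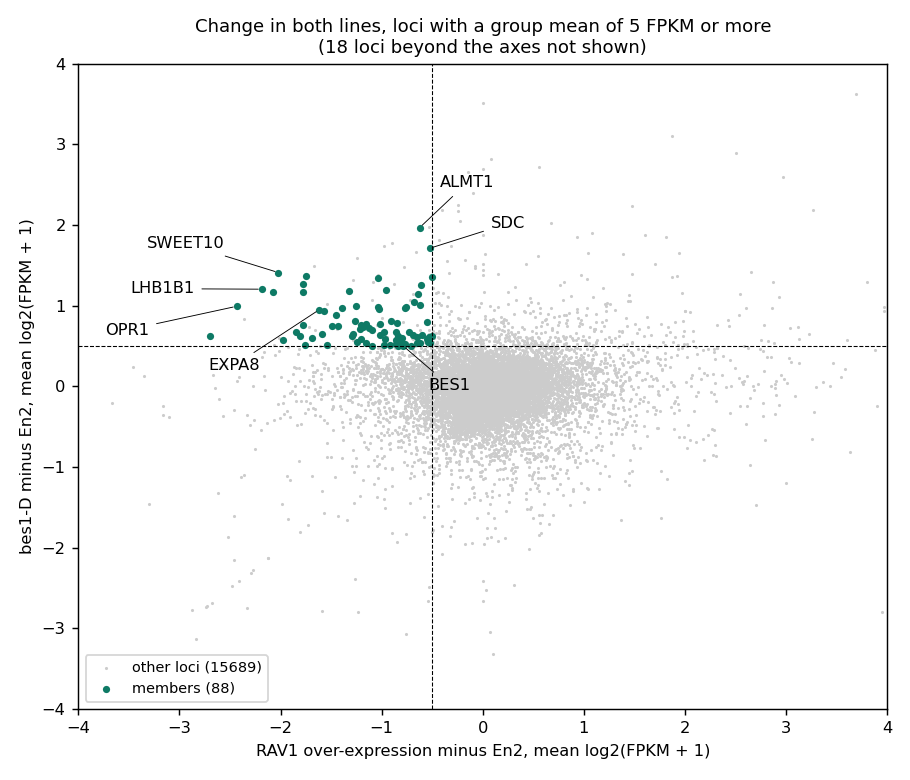
Change of each locus in RAV1OE (horizontal axis) and in bes1-D (vertical axis) against En2, as the difference of mean log2(FPKM + 1), for 15777 loci with a group mean of 5 FPKM or more. Green points are the 88 members, which the rule confines to the upper left beyond the dashed lines at -0.5 and 0.5; grey points there are loci whose libraries overlap between groups, and 18 loci beyond the axes are not shown.

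BES1 itself (AT1G19350, chromosome 1) was a member. It measured 95.5, 121 and 106 FPKM in En2, 60.7, 73.5 and 52.4 in RAV1OE and 136, 142 and 182 in bes1-D. By the rule the 3 groups did not overlap, and the means were 108 ± 13.1, 62.2 ± 10.6 and 154 ± 25.2 FPKM (SD, n = 3 each). The changes were -0.79 in RAV1OE and 0.50 in bes1-D, so that BES1 stood just inside the threshold. RAV1, which is no member, measured 71.4, 99 and 81.9 FPKM in En2, 1064, 756 and 1426 in RAV1OE and 53.9, 58.3 and 33.2 in bes1-D. RRA3, a gene on the opposite strand that shares 818 bases with BES1, had the opposite order of means, with 30.4, 28 and 30.2 FPKM in En2, 41.1, 35.5 and 43.4 in RAV1OE and 22.1, 22.9 and 28 in bes1-D. A TruSeq kit of this kind is not stated to keep strand, so reads of the shared stretch cannot be told apart. The other 5 genes of the BES1/BZR1 family did not meet the rule, and only 2 of them had a lower mean in RAV1OE than in En2. BZR1 was higher there, with means of 21.9 ± 2.46, 33.8 ± 4.96 and 25.2 ± 2.45 FPKM in En2, RAV1OE and bes1-D.

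Another regulator tied to the hormone was BEE3 (AT1G73830), a basic helix-loop-helix factor first known as a gene that brassinosteroids switch on. BEE3 measured 25.6, 38.9 and 32.9 FPKM in En2, 13.8, 18.3 and 9.68 in RAV1OE and 45.3, 48.4 and 70.8 in bes1-D (changes -1.19 and 0.73). Its relatives did not meet the rule: the BEE2 means were 24.2 ± 2.29, 14.9 ± 3.68 and 25.3 ± 2.83 FPKM in En2, RAV1OE and bes1-D, those of BEE1 26.4 ± 4.74, 38.4 ± 4.55 and 33.6 ± 6.3, and those of HBI1 42.7 ± 1.36, 21.8 ± 7.64 and 50.1 ± 7.44. Another DNA-binding member was HB-7 (AT2G46680; 13 ± 1.74, 5.15 ± 1.48 and 20 ± 2), a homeodomain-leucine zipper factor known for its response to drought and abscisic acid. YAB5 (AT2G26580; 28 ± 5.14, 16.4 ± 4.98 and 40.9 ± 8.34) belongs to the YABBY family of leaf polarity, and TGA7 (AT1G77920; 9.61 ± 0.1, 6.33 ± 0.777 and 14.9 ± 1.2) to the bZIP factors of salicylic acid signalling. DEAR2 (AT5G67190; 6.54 ± 0.413, 3.43 ± 1.65 and 12.1 ± 2.48) holds a DREB domain and an EAR repression motif. DEAR2 was also one of the 5 members whose lowest RAV1OE library was replicate 2, at 1.54 FPKM, against 4.17 and 4.57 in the others. AT5G44680, a DNA glycosylase family gene, had means of 18.1 ± 2.67, 6.52 ± 3 and 31.8 ± 8.91, and AT4G09890, annotated as a putative mediator subunit, of 25.1 ± 4.5, 6.43 ± 4.13 and 38.4 ± 9.76.

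**Figure D2:**
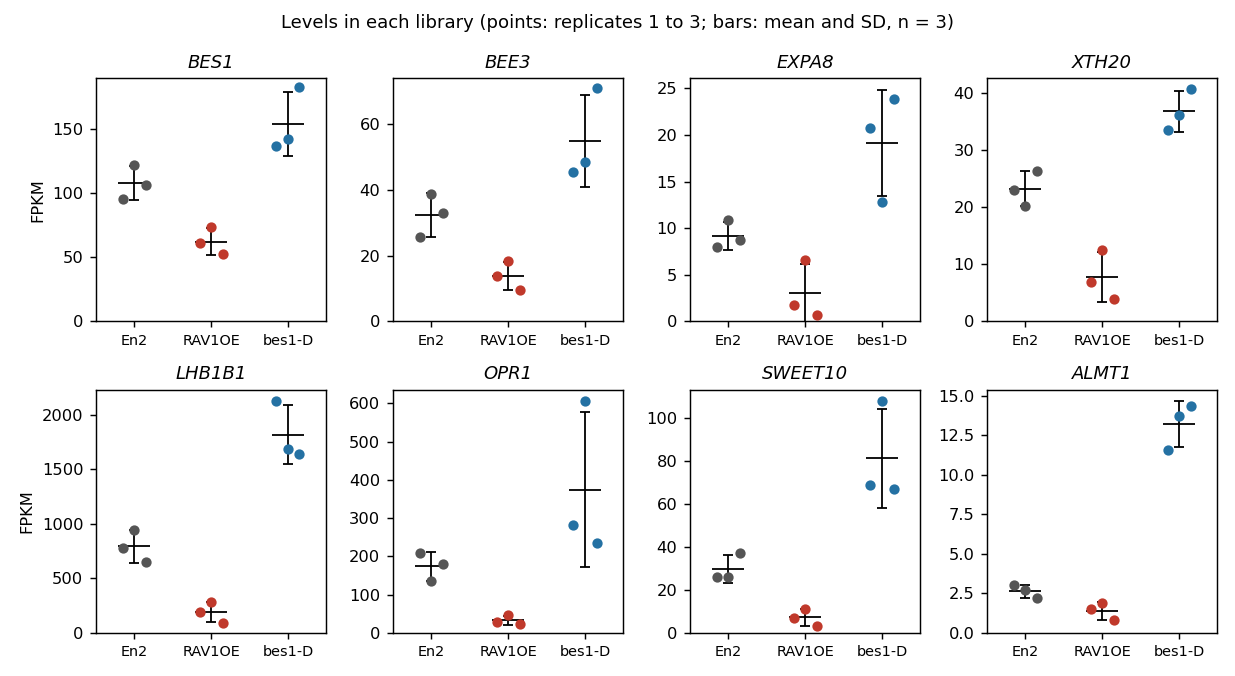
Level in FPKM (vertical axis, from 0) of 8 members in each library. Points are replicates 1 to 3 from left to right, and bars give the mean and SD (n = 3; the lower bar of EXPA8 in RAV1OE ends at the axis). In each panel the 3 RAV1OE points lie below and the 3 bes1-D points above all En2 points, by construction; OPR1 shows a bes1-D library at 606 FPKM far above the other two.

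Cell wall genes made up 9 of the 88 members (10.2%), against 2.29% of all loci at this level, counted by words in the RefSeq product names. Their median changes were -1.1 in RAV1OE and 0.65 in bes1-D. EXPA8 (AT2G40610), an expansin, which loosens the wall during cell enlargement, measured 8.01, 10.8 and 8.72 FPKM in En2, 1.76, 6.62 and 0.71 in RAV1OE and 20.8, 12.8 and 23.8 in bes1-D. The RAV1OE libraries were far apart: replicate 2 lay just under En2 while replicates 1 and 3 were under 2 FPKM. XTH20 (AT5G48070), a xyloglucan endotransglucosylase, which cuts and rejoins the polymers that tether cellulose, measured 23, 20.2 and 26.4 FPKM in En2, 6.83, 12.5 and 3.85 in RAV1OE and 33.4, 36.1 and 40.6 in bes1-D. The arabinogalactan proteins AGP21 (AT1G55330) and FLA9 (AT1G03870) sit at the cell surface and were abundant, with means of 162 ± 8.22, 59.6 ± 22.2 and 279 ± 74.1 FPKM in En2, RAV1OE and bes1-D for AGP21 and 265 ± 18.6, 164 ± 17.3 and 417 ± 81.3 for FLA9. AGP21 shares 364 bases with AT1G55335 on the opposite strand, a locus with no values in these data. The other cell wall members act on wall polysaccharides or the enzymes that cut them, by their family names. AT2G01610, of the invertase and pectin methylesterase inhibitors, had means of 4.05 ± 0.533, 1.47 ± 0.365 and 12 ± 2.73, and the pectin acetylesterase AT4G19420 of 72.9 ± 5.29, 33.6 ± 3.73 and 105 ± 19.6. TBL45 (AT2G30010), of a family known for wall acetylation, stood at 21.5 ± 0.588, 8.76 ± 4.08 and 34.4 ± 5.15, and PGIP2 (AT5G06870), which inhibits pectin-degrading enzymes of fungi, at 32 ± 1.36, 21.6 ± 7.91 and 47.2 ± 5.82. AT5G01075, annotated as glycosyl hydrolase family 35, stood at 11.9 ± 3.32, 6.31 ± 1 and 18.1 ± 1.85. Its annotated protein has only 81 residues, so its place among wall enzymes rests on the product name alone.

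The other expansins and xyloglucan genes on the lists were called in both directions in bes1-D. Calls come from limma, with p-values adjusted by the Benjamini-Hochberg method across the 19740 loci tested and a threshold of 0.05, and rose or fell is used below for called loci. Leaving out EXPA8, of 11 expansins tested 4 fell in RAV1OE and none rose, beside 8.01% and 15% of all tested loci called lower and higher there. In bes1-D 1 rose and 2 fell, beside 2.19% and 5.77%. EXPA1 had means of 43.9 ± 7.18, 18.8 ± 9.06 and 42.7 ± 5.72 FPKM and EXPA5 of 5.08 ± 1.15, 2.02 ± 0.839 and 5.09 ± 1.07, so that both were low in RAV1OE with bes1-D near En2. Leaving out XTH20, of 17 xyloglucan endotransglucosylase genes 4 fell and 3 rose in RAV1OE, and 2 rose and 3 fell in bes1-D. No cellulose synthase of 8 was called in either line. Median changes were -0.52 and -0.003 for these expansins, -0.24 and 0.29 for these xyloglucan genes, and 0.09 and -0.06 for all 19740 loci tested. The cell division list had no member of the rule and no call among its 6 genes.

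Among auxin and growth regulators the members were AT1G29430 and AT1G29460, known as SAUR62 and SAUR65, small auxin-upregulated genes of 1 array on chromosome 1. SAUR62 measured 6.74, 8.74 and 5.02 FPKM in En2, 0.49, 3.27 and 0.78 in RAV1OE and 11.5, 14.5 and 26.1 in bes1-D, and SAUR65 2.01, 4.13 and 2.57 FPKM in En2, 0.86, 1.43 and 0 in RAV1OE and 5.57, 4.43 and 6.43 in bes1-D. Both were at the low end of the table, where the scale compresses changes most. The other 6 measured genes of the array also had a lower mean in RAV1OE and a higher mean in bes1-D than in En2 (median changes -0.38 and 0.98), with none called in RAV1OE and 1 called higher in bes1-D. They missed the rule because libraries of RAV1OE or bes1-D overlapped with En2. SAUR63, for example, measured 3.41, 7.15 and 2.66 FPKM in En2, 0.82, 3.21 and 0.29 in RAV1OE and 14.1, 12.7 and 16.2 in bes1-D. Sequences in such arrays are similar, and how the counting divided shared reads is not stated, so the array's genes cannot be taken as independent of each other. RTFL6 (AT4G35783), of the ROTUNDIFOLIA-like peptides that limit cell proliferation when over-produced, had means of 5.29 ± 1.35, 0.9 ± 0.787 and 8.82 ± 3.19 FPKM and 0 in RAV1OE replicate 3.

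Water channels and carriers formed a further group. DELTA-TIP (AT3G16240), an aquaporin of the vacuolar membrane, measured 854, 936 and 771 FPKM in En2, 524, 686 and 373 in RAV1OE and 1484, 1170.2 and 1441 in bes1-D. PIP2A (AT3G53420), an aquaporin of the plasma membrane, measured 583, 525 and 409 FPKM in En2, 281, 328 and 239 in RAV1OE and 777, 685 and 702 in bes1-D. As members, neither could overlap between groups. Of the other 13 aquaporins listed, 12 had a lower mean in RAV1OE and 8 a higher mean in bes1-D. By limma 3 of the 13 fell in RAV1OE, beside 8.01% of all tested loci. In bes1-D 3 rose and 2 fell, beside 2.19% and 5.77%. PIP2E (PIP2;6) missed the rule only by size, with 211, 212 and 205 FPKM in En2, 136, 142 and 143 in RAV1OE and 302, 287 and 273 in bes1-D (changes -0.57 and 0.46).

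SWEET10 (AT5G50790), of the sugar efflux carriers, headed the members by the smaller of the changes (-2.02 and 1.41). It measured 25.7, 25.8 and 37.1 FPKM in En2, 6.97, 11.2 and 3.19 in RAV1OE and 68.6, 108 and 66.8 in bes1-D. ALMT1 (AT1G08430), a malate channel known from roots under aluminium stress, had the largest difference in bes1-D, with 3.03, 2.69 and 2.21 FPKM in En2, 1.52, 1.9 and 0.78 in RAV1OE and 11.6, 13.7 and 14.4 in bes1-D. NRT1.5 (AT1G32450), which loads nitrate into the xylem, had means of 62.8 ± 8.78, 39.2 ± 12.9 and 88.9 ± 5.64 FPKM in En2, RAV1OE and bes1-D, KUP9 (AT4G19960), of the potassium carriers, 3.74 ± 0.582, 1.68 ± 0.578 and 5.93 ± 0.524, SFP1 (AT5G27350), of the major facilitators, 57.9 ± 2.43, 29.4 ± 6.65 and 93 ± 9.61, and AT3G21690, of the MATE efflux family, 43.9 ± 8.74, 23.4 ± 0.528 and 70.5 ± 13.5. NLA (AT1G02860), a ubiquitin ligase that removes phosphate carriers and is needed under nitrogen limitation, stood at 21.5 ± 3.29, 9.12 ± 1.73 and 31.4 ± 2.65.

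Chloroplast and photosynthesis genes were 5 of the 88 members (5.68%, against 1.21% of loci at this level). LHB1B1 (AT2G34430, LHCB1.4), a light-harvesting protein of photosystem II, measured 778, 947 and 650.1 FPKM in En2, 189, 281 and 94.1 in RAV1OE and 2127, 1685 and 1638 in bes1-D. Its level in RAV1OE was 4.21-fold below En2 and in bes1-D 2.29-fold above it, as ratios of mean FPKM, and both changes exceeded those of the other 4 LHCB1 genes. The adjacent LHB1B2 had changes of -0.65 and 0.21, and CAB1, CAB2 and CAB3 of -1.14 and 0.26, -0.90 and -0.02 and -0.71 and 0.20. These genes are close copies, so reads may have been divided between them. PSAH-1 (AT3G16140) and PSAN (AT5G64040), subunits of photosystem I, had means of 1998 ± 198, 1157 ± 244 and 2879 ± 354 and 1471 ± 124, 754 ± 146 and 2127 ± 475 FPKM. The other 11 genes annotated as photosystem I subunits all had a lower mean in RAV1OE, 10 of them called, and 10 had a higher mean in bes1-D, none of them called (median changes -0.85 and 0.23). In the list of 20 photosynthesis genes, which held no member, 20 fell in RAV1OE, beside 8.01% of all tested loci. None of the 20 was called in bes1-D (median 0.15). CT-BMY (AT4G17090), a beta-amylase of starch breakdown, stood at 24.6 ± 2.79, 9.84 ± 1.73 and 36.7 ± 7.43 and the thylakoid phosphoprotein gene AT3G47070 at 163 ± 13.6, 111 ± 8.48 and 238 ± 17.8.

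Members outside that class included genes known to work in the chloroplast, and enzymes that remove superoxide or hydrogen peroxide. HEMA1 (AT1G58290), glutamyl-tRNA reductase at the start of chlorophyll synthesis, measured 72.4, 75.4 and 73 FPKM in En2, 48.6, 48 and 40.1 in RAV1OE and 164, 139 and 157 in bes1-D, with little spread inside any group. FED A (AT1G60950), the ferredoxin that carries electrons away from photosystem I, measured 1269, 1402 and 1414 FPKM in En2, 919, 925 and 941 in RAV1OE and 1851, 1948 and 2368 in bes1-D. Its RAV1OE libraries lay close together. The carbonic anhydrase ACA1 (AT3G52720) had means of 54.5 ± 3.1, 23.3 ± 14.3 and 108 ± 11.6 FPKM. The iron superoxide dismutase FSD1 (AT4G25100) and the catalase CAT2 (AT4G35090), which remove superoxide and hydrogen peroxide, stood at 1996 ± 184, 1325 ± 188 and 3122 ± 501 and 422 ± 45.8, 268 ± 27.8 and 645 ± 88.7.

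Lipid and cuticle genes were 6 of 88 (6.82%, against 1.06% of loci at this level), with median changes of -0.81 and 0.84. KCS1 (AT1G01120), which elongates very-long-chain fatty acids for wax, measured 32.5, 28.7 and 24.5 FPKM in En2, 23.1, 23.8 and 12.4 in RAV1OE and 57.2, 41.1 and 53 in bes1-D. The GDSL lipase family gave AT3G16370, with 172, 168 and 150.2 FPKM in En2, 127, 127 and 93.4 in RAV1OE and 388, 344 and 553 in bes1-D, AT1G29660, with means of 46.5 ± 2.34, 27.1 ± 5.2 and 93.2 ± 19.3, and AT1G75900, with 10.7 ± 1.78, 3.26 ± 0.6 and 21 ± 6.58. AT2G45180, of the lipid transfer proteins, was the most abundant member, at 2552, 2839 and 2610.4 FPKM in En2, 1156, 1464 and 1136 in RAV1OE and 4086, 3849 and 5078 in bes1-D. AT1G06360, a fatty acid desaturase, had means of 19.5 ± 1.79, 11.2 ± 5.47 and 28.2 ± 4.43. Outside the class by its product words, DCF (AT3G48720), which puts ferulate on cutin, measured 24.9, 22.2 and 24.1 FPKM in En2, 9.85, 11.9 and 6.74 in RAV1OE and 43.1, 39.6 and 44.4 in bes1-D. GPAT3 (AT4G01950), a glycerol-3-phosphate acyltransferase, stood at 8.83 ± 0.808, 4.77 ± 2.31 and 13.4 ± 3.06, GLTP3 (AT3G21260), a glycolipid transfer protein, at 24.2 ± 1.79, 9.57 ± 1.56 and 49.5 ± 8.23, and LUP1 (AT1G78970), which makes the triterpene lupeol, at 4.32 ± 1.3, 2.39 ± 0.724 and 10.7 ± 1.66. LUP1 shares 551 bases with SRF5 on the opposite strand, a locus with no values in these data.

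Genes known from defence and specialised metabolism were among the members too. OPR1 (AT1G76680), an oxophytodienoate reductase of the same family as the jasmonate enzyme OPR3, measured 209, 134 and 179 FPKM in En2, 27.9, 46 and 22.9 in RAV1OE and 281, 606 and 235 in bes1-D. Its mean in bes1-D (374 FPKM) leaned on replicate 2, and the other bes1-D libraries lay closer to En2. OPR2, which shares 216 bases with OPR1 on the same strand, measured 24.4, 20.9 and 20.4 in En2, 12.4, 11.6 and 14.6 in RAV1OE, and 21.0, 35.4 and 18.6 in bes1-D, and was highest in the same library. ESP (AT1G54040), the epithiospecifier that diverts glucosinolate breakdown to nitriles and epithionitriles, measured 284, 342 and 301 FPKM in En2, 129, 177 and 102 in RAV1OE and 486, 497 and 529.8 in bes1-D. No gene of the list of 18 aliphatic glucosinolate genes was a member. Of the 17 tested 15 fell in RAV1OE, beside 8.01% of all tested loci. In bes1-D 6 fell, beside 5.77%, and none rose. BGLU33 (AT2G32860), a beta-glucosidase, had means of 9.97 ± 1.1, 4.72 ± 2.2 and 17.9 ± 3.15, and scpl10 (AT2G23000), of the serine carboxypeptidase-like proteins, 8.34 ± 1.9, 3.66 ± 1.5 and 16.9 ± 2.02.

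The lectins AT1G78850 and AT3G15356 were abundant. AT1G78850 measured 132, 191 and 159.9 FPKM in En2, 88.1, 126 and 48.8 in RAV1OE and 373, 403 and 327 in bes1-D, and AT3G15356 had means of 174 ± 39.2, 59 ± 18.8 and 339.8 ± 108 FPKM in En2, RAV1OE and bes1-D. The class III peroxidases AT2G18150 and AT2G41480, enzymes of the wall, stood at 11.2 ± 1.03, 5.98 ± 2.97 and 20.2 ± 1.19 and 7.02 ± 1.28, 3.75 ± 2.06 and 10.7 ± 0.425. AT3G04210, of the TIR-NBS resistance proteins, stood at 5.42 ± 1.36, 1.2 ± 0.404 and 8.07 ± 1.07 and the dirigent-like AT1G65870 at 3.24 ± 1.26, 0.9 ± 0.531 and 6.19 ± 1.83. The kinases AT1G65190 and AT4G02630 had means of 12.6 ± 0.767, 3.09 ± 1.36 and 22 ± 0.802 and 3.24 ± 0.455, 0.737 ± 0.247 and 5.51 ± 0.545, and the leucine-rich repeat gene AT1G49750 of 57.6 ± 6.78, 32.6 ± 2.05 and 84.5 ± 16.2. None of the lists for salicylic acid defence (10 genes) and jasmonate defence (9 genes) held a member. In the former 7 of 9 tested rose in RAV1OE, beside 15% of all tested loci, and none was called in bes1-D. In the latter, of 8 tested, 2 fell and 3 rose in RAV1OE, and 1 rose and 2 fell in bes1-D.

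Metabolic enzymes known only by family included a pair of S-adenosylmethionine-dependent methyltransferases. AT5G38100 measured 10.2, 10.7 and 7.73 FPKM in En2, 2.65, 3.59 and 0.81 in RAV1OE and 29.7, 20.9 and 28.4 in bes1-D, next after SWEET10 by the smaller of the changes, and AT1G15125 had means of 32.2 ± 1.2, 15.2 ± 1.8 and 66.3 ± 17.9 FPKM. AT1G15125 shares 183 bases on the same strand with AT1G15120, which stood far higher, at 285 to 382 FPKM over the 9 libraries. The level of AT1G15125 is therefore uncertain. The NAD(P)-binding proteins AT2G29310 and AT3G50560 stood at 74.9 ± 5.39, 43 ± 14.9 and 117 ± 25.5 and 7.13 ± 1.08, 3.88 ± 1.33 and 15.1 ± 2.49. AT5G44400, a berberine-bridge oxidase, had libraries close together in each group, with 4.95, 4.82 and 4.41 FPKM in En2, 2.6, 2.85 and 2.8 in RAV1OE and 12.9, 12.6 and 12.5 in bes1-D. AT5G59540, a 2-oxoglutarate-dependent oxygenase, had means of 59 ± 5.97, 30.6 ± 1.55 and 84.8 ± 13.3, the hydrolases AT5G22460 and AT4G17470 of 6.04 ± 1.13, 1.17 ± 0.191 and 9.61 ± 1.56 and 7.13 ± 0.198, 4.4 ± 2.97 and 10.8 ± 2.52, and the acid phosphatase AT5G44020 of 314 ± 15.1, 219 ± 33 and 456 ± 37.9. AAH (AT4G20070), which breaks down allantoate to recover purine nitrogen, stood at 13.2 ± 0.614, 8.99 ± 0.221 and 20.9 ± 2.37, and AT1G21670, annotated by a DPP6 domain, at 14.7 ± 1.47, 9.94 ± 2.14 and 22.9 ± 2.49.

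SDC (AT2G17690), an F-box gene known to be silenced by DNA methylation, measured 2.54, 2.94 and 3.49 FPKM in En2, 2.43, 1.8 and 1.2 in RAV1OE and 12.4, 8.75 and 15.9 in bes1-D. It shares 1303 bases with AT2G17695 on the opposite strand, which stood far higher, at 37.9 to 61.6 FPKM over the 9 libraries, so the level of SDC is uncertain. AT4G04293, a pseudogene in the annotation, measured 71.2, 69 and 86.4 FPKM in En2, 33.8, 35 and 21.6 in RAV1OE and 148, 133 and 259 in bes1-D. The locus MIR414 (AT1G67195) measured 47.8, 48.1 and 47.7 FPKM in En2, 17.2, 21.4 and 6.42 in RAV1OE and 61.4, 66.6 and 78.4 in bes1-D, which is the level over a precursor locus of 108 bases in the annotation and not that of a mature microRNA. AT1G53690, annotated as a small RNA polymerase subunit, spread widely in En2, with 9.87, 26.9 and 16.6 FPKM in En2, 3.21, 5.86 and 3.55 in RAV1OE and 36, 35.8 and 53.5 in bes1-D. The F-box gene AT1G73120 measured 52.5, 36.6 and 49.3 FPKM in En2, 13.2, 16.4 and 4.49 in RAV1OE and 112, 115 and 86.2 in bes1-D.

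Members with no described function included AT1G65490, which had the most negative change in RAV1OE, with 85.4, 97.4 and 135 FPKM in En2, 16.8, 33 and 6.05 in RAV1OE and 139.7, 186 and 158 in bes1-D. The other products called uncharacterized had means, in En2, RAV1OE and bes1-D, of 14.9 ± 3.89, 4.1 ± 3.36 and 24 ± 4.33 FPKM for AT4G38820, 11.7 ± 1.95, 5.53 ± 1.4 and 18.1 ± 4.29 for AT3G55420, 19.4 ± 3.77, 10.7 ± 3.46 and 29.5 ± 5.46 for AT4G11211 and 37.4 ± 5.93, 23.4 ± 3 and 54.3 ± 5.44 for AT5G11070. The glycine-rich protein AT5G46730 stood at 22.9 ± 4.91, 14.6 ± 3.21 and 47.1 ± 9.15, the remorin AT3G61260, of a membrane-associated family, at 71.2 ± 5.93, 34.9 ± 5.28 and 111 ± 13.3, and AT2G46630, annotated as a serine/arginine repetitive protein, at 15.1 ± 2.58, 8.12 ± 3.03 and 23 ± 4.07. The RING finger gene PIT1 (AT4G02075) stood at 12.2 ± 1.68, 6.44 ± 1.23 and 17.9 ± 1.26 and MRU1 (AT5G35490), annotated as mto 1 responding up, at 46.3 ± 7.82, 20.5 ± 1.79 and 77.2 ± 17. All 88 loci were found in the RefSeq annotation of TAIR10.1, and 86 of them were protein-coding. By product words 49 fell in no class (55.7%, against 75% of loci at this level). Transcription factors were 4.55% of members (against 4.93%), receptors and kinases 3.41% (against 5.82%) and oxidation enzymes 2.27% (against 2.85%). By these words the transcription factor class held the RING finger gene PIT1, while BES1, BEE3 and DEAR2 fell in no class. Its share is therefore not a count of known DNA-binding factors. Auxin and growth regulators were 2.27% (against 0.697%), defence 2.27% (against 0.754%) and water and solute transport 6.82% (against 2.84%). The classes of cell division and cytoskeleton (1.67% of loci) and of peptides and small proteins (0.304%) held no member. That of glucosinolate and specialised metabolism (0.577%) held none either, and ESP fell in no class by its product words.

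**Figure D3:**
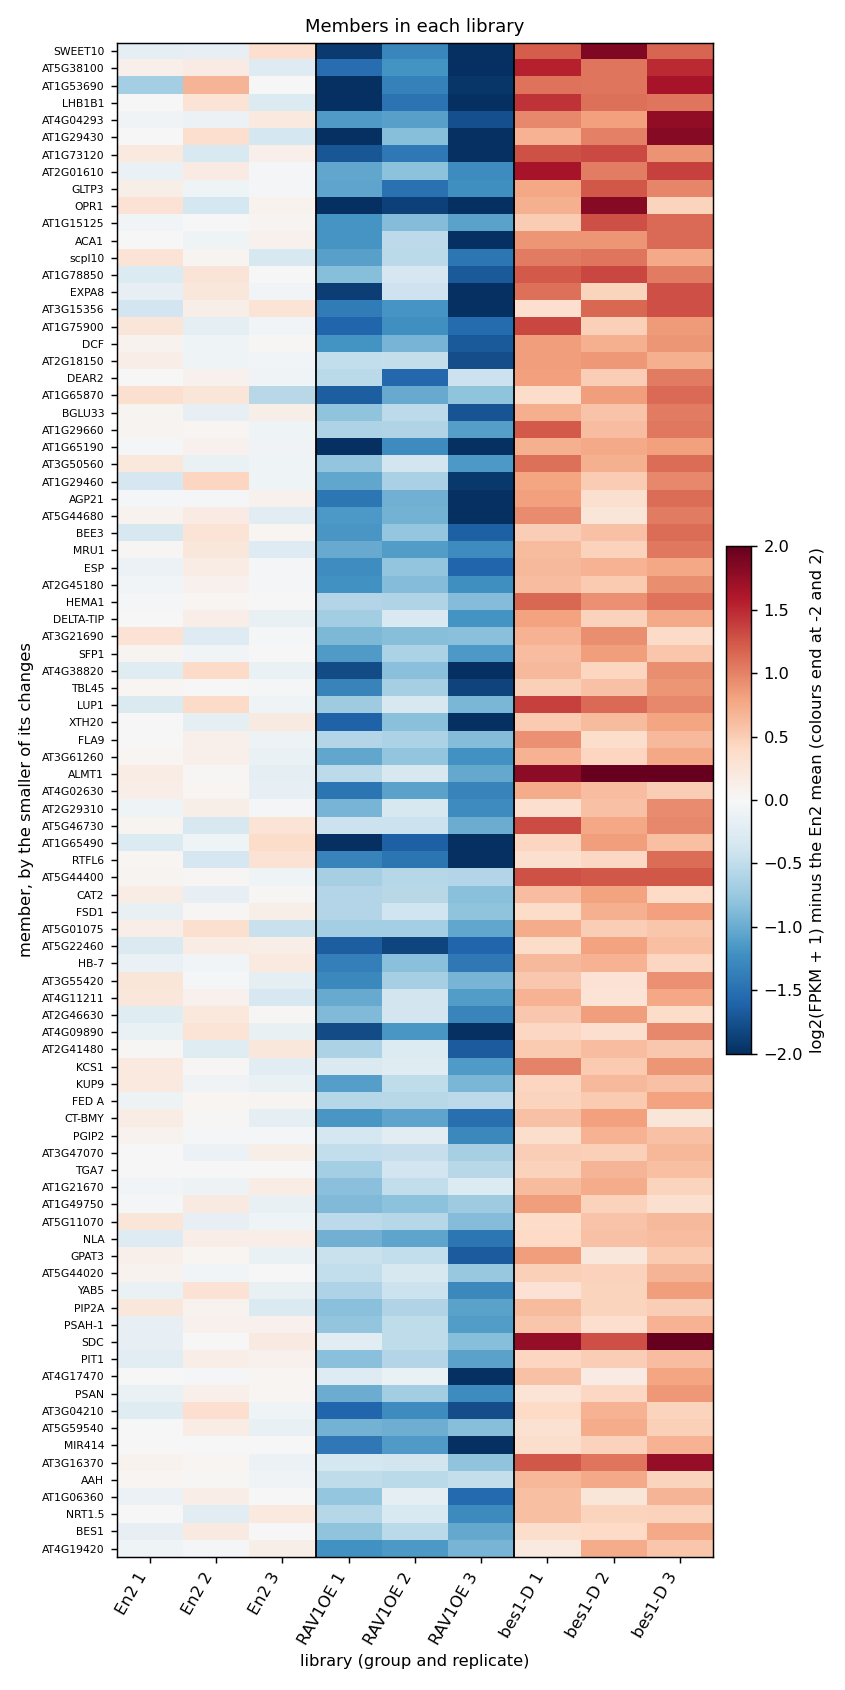
The 88 members (rows, ordered by the smaller of their changes) in each of the 9 libraries (columns). Colour gives log2(FPKM + 1) minus the En2 mean of the same gene, ending at -2 and 2. RAV1OE replicate 3 is the darkest blue column, with a median of -1.27, and replicate 2 the palest of the 3, with -0.65.

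The rule did not use the order of libraries inside a group. Members were lowest in RAV1OE replicate 3 for 68 of 88 (77.3%), beside 35.7% of all tested loci, and highest in replicate 2 for 66 (75%), beside 33.2%. Both held for 57 members (64.8%), against 22.3% of all tested loci and 58.1% of loci called lower in RAV1OE, so that the order was near that of the lower genes of this line at large. Replicates 1, 2 and 3 of RAV1OE had member medians of -0.99, -0.65 and -1.27 against En2, and those of bes1-D had 0.65, 0.66 and 0.82. RAV1 itself was highest in RAV1OE replicate 3 (1426 FPKM) and lowest in replicate 2 (756). In bes1-D the members were highest in replicate 3 for 45 of 88 (51.1%, beside 39.5% of all tested loci), the library with the most BES1 (182 FPKM) and the least RAV1 (33.2). With 3 libraries a group these orders are a description, and BES1 is a member itself. Together the members took 1.65% to 1.79% of all FPKM in En2, 0.8% to 1.11% in RAV1OE and 2.65% to 2.91% in bes1-D.

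**Figure D4:**
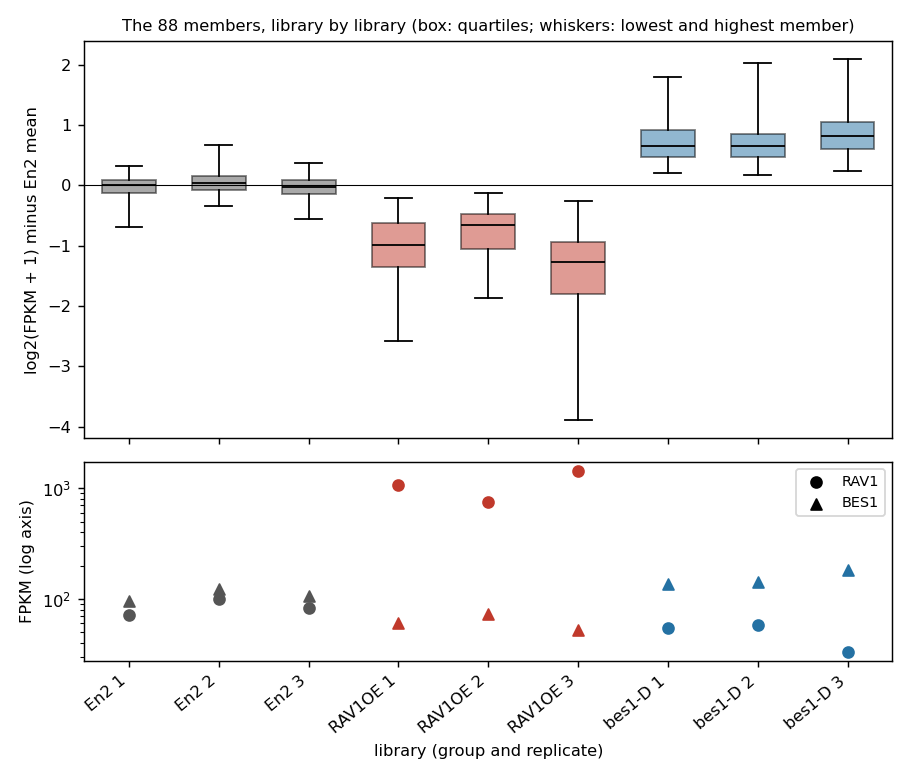
Top, the 88 members in each library as log2(FPKM + 1) minus their En2 mean (box, quartiles with the median; whiskers, lowest and highest member). Bottom, RAV1 (circles) and BES1 (triangles) in FPKM on a log axis; within RAV1OE the member medians of -0.99, -0.65 and -1.27 stand over RAV1 levels of 1064, 756 and 1426 FPKM.

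Marker lists of seed, green and root tissue were summed in each library. The 12 seed maturation genes summed to 18.1 to 35.8 FPKM in En2 and 22 to 35.8 in bes1-D, with 2 to 5 of them at 0 in each of those libraries. In RAV1OE they summed to 461, 139 and 1698 in replicates 1 to 3, with 1 gene at 0 in replicate 2 and none in the others. Of 8 tested, 7 rose there, beside 15% of all tested loci. The 20 photosynthesis genes summed to 81680 to 87080 FPKM in En2, 38280 to 58130 in RAV1OE and 90340 to 96240 in bes1-D. In RAV1OE the seed sum was highest and the photosynthesis sum lowest in replicate 3, where most members were lowest. The 9 root markers were above 0 in every library, and their sum was 93.1% to 95.4% from 1 gene, PYK10. Without it they summed to 95.6 to 100.3 FPKM in En2, 95.9 to 101 in RAV1OE and 56.9 to 66.6 in bes1-D. By limma 2 root markers fell and 3 rose in RAV1OE, and 5 fell in bes1-D, beside 5.77% of all tested loci. Green and root markers were thus both present, as in whole seedlings. In bulk tissue, fewer cells of a type and less RNA per cell cannot be told apart, and the part of these shifts in the members' levels was not tested.

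The wider brassinosteroid lists had few members. BES1 was the only one of its family of 6, and no gene of the RAV family (4), of brassinosteroid biosynthesis (10) or of its receptors and kinases (8) met the rule. Over all tested loci, 8.01% fell and 15% rose in RAV1OE, and 5.77% fell and 2.19% rose in bes1-D. Of the 5 others of the BES1 family, 1 fell and 2 rose in RAV1OE, and 1 fell in bes1-D. Of 7 receptors and kinases tested, 1 fell and 4 rose in RAV1OE, and none was called in bes1-D. In biosynthesis, 6 of 10 fell in bes1-D and 1 fell in RAV1OE. DWF4, which catalyses the rate-limiting step, had means of 9.84 ± 0.652, 9.45 ± 1.2 and 2.52 ± 0.459 FPKM and CPD of 70.2 ± 2.35, 56.4 ± 5.98 and 20.4 ± 2.7. BEE3 was the member among 13 helix-loop-helix growth regulators. Of the 11 others tested 2 fell and 2 rose in RAV1OE, and none was called in bes1-D. KCS1 was the member among 11 known growth targets of the pathway. Of the 7 others tested 1 rose in RAV1OE and 2 rose in bes1-D.

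The promoters of the members were compared with those of the other loci, since BES1 and RAV1 are known to bind DNA at different letters. The windows ran from 250 bases before the annotated gene start to 50 after it in the RefSeq TAIR10.1 genome, which is of the Columbia accession, so En2 may differ from the letters shown. Both strands were searched. BES1 is known to bind the E-box CANNTG, and the brassinosteroid response element (BRRE, CGTGCG or CGTGTG) is a site of its family at repressed genes. RAV1 is known to bind CAACA by its AP2 domain and CACCTG, itself an E-box, by its B3 domain. An E-box stood in 64 of 88 member promoters (72.7%), beside 62.6% of 15736 promoters of loci at this level. CAACA stood in 51 (58%, beside 52.6%) and the G-box CACGTG, another E-box, in 5 (5.68%, beside 9.02%). CACCTG was found in none of the 88, beside 3.13% of all. A BRRE stood in 4 of 88 (4.55%), beside 8.53% of all.

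The BRRE shares of the other direction patterns were higher. It stood in 38 of 143 promoters (26.6%) of loci higher in RAV1OE and lower in bes1-D, in 19 of 97 (19.6%) of those lower in both lines, and in 10 of 131 (7.63%) of those higher in both. E-boxes stood in 63.6%, 69.1% and 61.8% of the same sets. Over the 1000 bases before the gene start, the shares of members and of all promoters were 96.6% against 96.6% for the E-box, 94.3% against 93.9% for CAACA and 22.7% against 22% for the BRRE. They were 14.8% against 16.2% for the G-box and 9.09% against 14% for CACCTG. In percentage points the CACCTG shares were farther apart than in the short window (0% against 3.13%). Over the 1000 bases the loci higher in RAV1OE and lower in bes1-D had a BRRE in 42%. The median GC content of the short windows was 31.7% for members and 32% for all. A match in these windows is a description of letters, not of binding, and the shares were not tested.

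**Figure D5:**
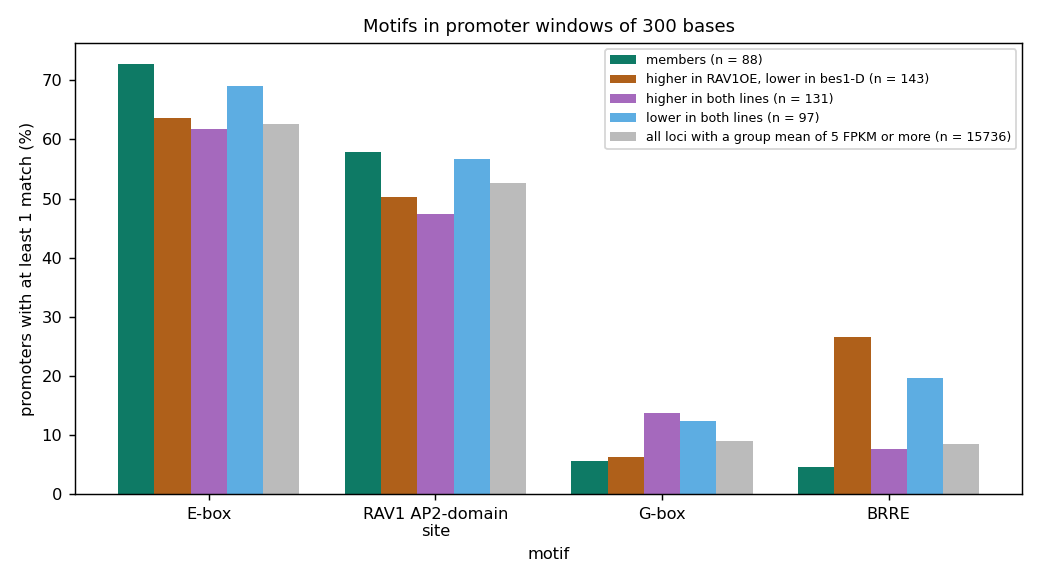
Share of promoters (vertical axis, percent, windows of 300 bases) with at least 1 match to each motif, for the 88 members, the other 3 direction patterns and all loci with a group mean of 5 FPKM or more. The BRRE bar of the members is at 4.55% and that of the loci with the opposite pattern at 26.6%.

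The promoters below are those of BES1 and EXPA8 and the 4 member promoters that hold a BRRE, shown 5′ to 3′ on the gene's strand with E-boxes and BRREs in capitals. BES1 (chr1:6688213-6688512, plus strand) has 3 E-boxes and neither a BRRE nor CAACA. EXPA8 (chr2:16950656-16950955, minus strand) has 1 E-box and CAACA on the opposite strand. KCS1 (chr1:59166-59465, minus strand) has 1 E-box and a BRRE, CT-BMY (chr4:9607353-9607652, minus strand) and AT2G41480 (chr2:17298676-17298975, minus strand) each have 2 E-boxes and a BRRE. TGA7 (chr1:29297993-29298292, plus strand) has a pair of BRREs and no E-box.
BES1: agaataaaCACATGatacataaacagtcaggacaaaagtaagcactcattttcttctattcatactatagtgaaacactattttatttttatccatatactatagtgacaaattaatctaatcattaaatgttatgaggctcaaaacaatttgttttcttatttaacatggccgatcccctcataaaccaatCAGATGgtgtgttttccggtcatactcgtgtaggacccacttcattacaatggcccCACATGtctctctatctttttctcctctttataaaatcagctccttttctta
EXPA8: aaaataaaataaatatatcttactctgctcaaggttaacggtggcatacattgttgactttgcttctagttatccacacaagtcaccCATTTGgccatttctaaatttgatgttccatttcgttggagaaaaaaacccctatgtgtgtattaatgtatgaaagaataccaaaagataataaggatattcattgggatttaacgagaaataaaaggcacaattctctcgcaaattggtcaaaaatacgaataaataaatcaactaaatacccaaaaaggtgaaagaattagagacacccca
KCS1: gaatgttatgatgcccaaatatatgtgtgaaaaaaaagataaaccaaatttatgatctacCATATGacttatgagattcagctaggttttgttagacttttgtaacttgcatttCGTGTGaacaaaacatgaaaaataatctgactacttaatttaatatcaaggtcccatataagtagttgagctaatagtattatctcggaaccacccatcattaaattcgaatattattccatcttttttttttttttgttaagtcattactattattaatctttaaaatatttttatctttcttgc
CT-BMY: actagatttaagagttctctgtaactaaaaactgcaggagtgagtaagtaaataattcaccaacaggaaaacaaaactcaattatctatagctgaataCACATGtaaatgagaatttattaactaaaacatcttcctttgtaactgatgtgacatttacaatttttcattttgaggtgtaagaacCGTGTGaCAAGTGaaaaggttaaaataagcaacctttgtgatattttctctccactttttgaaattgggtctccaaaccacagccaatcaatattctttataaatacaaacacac
AT2G41480: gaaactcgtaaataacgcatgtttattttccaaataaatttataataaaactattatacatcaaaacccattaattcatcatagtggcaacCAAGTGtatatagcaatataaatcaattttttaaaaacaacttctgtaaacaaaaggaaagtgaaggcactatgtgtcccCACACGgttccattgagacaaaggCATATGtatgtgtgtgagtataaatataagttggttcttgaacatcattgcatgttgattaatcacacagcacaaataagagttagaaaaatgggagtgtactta
TGA7: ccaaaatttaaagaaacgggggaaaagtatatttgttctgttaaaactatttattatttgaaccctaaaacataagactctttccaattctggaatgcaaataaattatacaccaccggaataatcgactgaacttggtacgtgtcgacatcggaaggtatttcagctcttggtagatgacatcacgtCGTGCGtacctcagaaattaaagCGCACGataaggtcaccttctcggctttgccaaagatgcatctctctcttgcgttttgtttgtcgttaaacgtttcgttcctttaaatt
BES1 with its 3 E-boxes and TGA7 with its BRREs both stood near the threshold of the rule, with changes of -0.79 and 0.50 and -0.54 and 0.58. KCS1 had -0.56 and 0.80, CT-BMY -1.25 and 0.55 and AT2G41480 -0.85 and 0.56.

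The members were spread over the genome. Chromosomes 1 to 5 held 29, 14, 14, 15 and 16 of them. Chromosome 1 thus had 33%, beside 25.8% of loci at this level, and chromosome 5 had 18.2%, beside 23.5%. In gene order, 2 pairs of members stood with 5 or fewer loci of the table between them: SAUR62 and SAUR65, with 2 between, and AT2G46630 and HB-7, with 4. The encoded proteins had a median of 311.5 residues, beside 372 over loci at this level. At 22 members the annotation overlaps another locus, and at 17 of these on the opposite strand.

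The fit across all genes gives the background for these numbers. Of the 88 members, 78 were called lower in RAV1OE, beside 8.01% of all 19740 loci tested, and 40 were called higher in bes1-D, beside 2.19%. Called in both were 37, beside 0.35% of all loci. The rule used the same contrasts, so nothing is read from these counts. The 4 members nearest the threshold had a smaller change of 0.504 (AT1G06360), 0.503 (NRT1.5), 0.502 (BES1) and 0.5 (AT4G19420). Just outside lay AT2G47440 (0.499), AT5G25240 (0.499), WAG1 (0.496) and AT4G01390 (0.495). A further 344 loci reached the threshold on level and had the same order of libraries with no overlap, but missed the threshold on size of change. The number of members depended on scaling: median-of-ratios scaling between libraries gave 147, all 88 among them. It moved the median change of all tested loci from 0.09 to 0.00 in RAV1OE and from -0.06 to 0.00 in bes1-D.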

How the data were processed

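The authors deposited FPKM per locus for 9 libraries of 100-base paired-end reads, and the submitters' processing notes name FastQC 0.10.1, TopHat2, Cufflinks 2.1.1 and the build TAIR10. The library kit was TruSeq RNA, per the labels' protocols, and whether counting used strand is not given in the sources used here. FPKM keep no counts, so depth per sample is unknown. The sums of FPKM were 890880 to 971271 per library. A locus with a blank value was left out.

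Levels were put on the log2(FPKM + 1) scale with no further scaling. For the background, limma 3.58.1 in R 4.3.3 (trend and robust options, 6 residual degrees of freedom) was fitted to all 3 groups, on the 19740 loci that reached 1 FPKM in 3 or more libraries, and was tested on simulated data. Replicates are labelled biological, but their source plants or plates are not described.

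Members, gene lists and tests were chosen with earlier results of these data known. By rule, 53 members were named (largest smaller change, most abundant, on a list, leading their class, or nearest the threshold). The other members were named after their values were seen, to account for all 88. EXPA1, EXPA5, BZR1, BEE1, BEE2, HBI1, DWF4, CPD, SAUR63, PIP2E, RRA3, OPR2, AT1G15120 and the LHCB1 copies were also chosen after their values were seen. Promoter windows were read from the RefSeq TAIR10.1 genome. Alternatives changed the scaling, pseudocount, filter, threshold, fit options and libraries.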

Additional observations from a re-analysis of the deposited data

How the results depend on the processing

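The number of loci that met the rule depended on the processing: it was 147 under median-of-ratios scaling (all 88 kept), 138 under quantile normalization (83 kept), 49 with a pseudocount of 5, 8 at a change of at least 1 and 274 at a change of at least 0.25. Leaving out 1 library gave 77 to 113 loci, and the cause of these moves was not tested. Of the 88 members, 69 still met the rule without bes1-D replicate 3, the fewest, and 86 without RAV1OE replicate 1 or 2, the most. Loci called in RAV1OE numbered 4541, and 2644 to 5112 with 1 library left out; in bes1-D they numbered 1572, and 616 to 1717. Members called in both numbered 37, and 12 to 49 with 1 library left out. They were 18, 13 and 12 without En2 replicates 1, 2 and 3, 22 without RAV1OE replicate 1, and 23, 19 and 24 without bes1-D replicates 1, 2 and 3. Of the loci called in RAV1OE, 65.2% were higher, against 47.4% under median-of-ratios scaling and 47.6% under quantile normalization. In bes1-D 27.5% were higher, against 45.1% and 41.7%. Deviations of same-numbered libraries from their group means correlated at -0.076 to 0.151, beside -0.156 to 0.069 for libraries of different numbers. With 3 libraries a group, these values cannot decide whether the replicate numbers pair the samples. The main fit used no pairing. With a replicate block 4354 loci were called in RAV1OE, 1287 in bes1-D and 34 members in both. Values under about 1 FPKM are compressed by the pseudocount, and with no counts no limit of detection can be given.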
